A study of Arabidopsis thaliana with 16 samples.

Results

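The 59 genes described here encode the small-subunit (40S) ribosomal proteins Sa to S19 of Arabidopsis thaliana, taken by locus identifier from a list of 21 protein families. They are 59 of the 37336 genes in the count tables. Families hold 2 (8 families), 3 (9 families) or 4 (4 families) paralogues. Of the 59 genes, 56 had at least 1 count in the 16 libraries and 49 passed the filter on low counts that every test used.

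RNA was taken from mature dry seeds and sequenced as 3′RNA-Seq, in which reads come from the 3′ end of each transcript. There were 4 libraries each of brm-3, dog1-4, the double mutant brm-3dog1-4 and the wild type Col-0. brm-3 is a T-DNA insertion line (SALK_088462) in BRM, the ATPase of a SWI/SNF chromatin remodeller, used in place of a sterile knockout. dog1-4 is an insertion line (SM_3_20886) in DELAY OF GERMINATION 1 (DOG1), a regulator of seed dormancy, and each allele is represented by a single line. Nothing in the sources says which libraries came from separate plants or harvests, though for other assays the study describes a biological replicate as a pool of plants, so the p-values measure the spread between libraries, which may be technical.

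Each 40S subunit carries a single copy of each of its proteins, bound to the 18S ribosomal RNA. In Arabidopsis every such protein comes from several genes whose products are nearly alike, so its supply is the sum over paralogues. The body and platform of the subunit form the mRNA channel and its exit, and the head holds the tRNAs of the P site and opens during initiation. A dry seed stores ribosomes and mRNA made during maturation, and translation resumes when the seed takes up water.

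Library totals were 1627347 to 2031600 counts in brm-3, 803578 to 1516604 in dog1-4, 977878 to 2359673 in brm-3dog1-4 and 1467125 to 2273515 in Col-0. Levels are given as CPM, a gene's counts over its library's total after edgeR's TMM scaling, and a gene with 3 counts in a library would stand at 0.964 to 3.87 CPM. DOG1 had 144 to 206 counts in brm-3, 2 to 7 in dog1-4 and 2 to 10 in brm-3dog1-4, against 124 to 203 in Col-0. BRM had 15 to 27 counts in brm-3, 21 to 56 in dog1-4 and 21 to 39 in brm-3dog1-4, against 24 to 66 in Col-0. Its decreases, log2 -1.29 in brm-3 and -1.24 in the double mutant, passed the test (edgeR adjusted p = 3.38e-05 and 2.09e-06). Because bulk seed RNA was measured, fewer cells of a type and less RNA per cell cannot be told apart.

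The summed level of the 59 genes was higher in every dog1-4 and brm-3dog1-4 library than in any Col-0 library. The sums were 1811, 2220.3, 1979 and 2026 CPM in brm-3, which overlapped Col-0 at 1824, 1895, 1709 and 1991 CPM. In dog1-4 they were 2999.8, 2942, 2749.9 and 2847 CPM. In brm-3dog1-4 they were 3797, 4275, 3239.8 and 3923 CPM, each above the highest dog1-4 library. The mean sums were 2009 ± 169 in brm-3, 2885 ± 109.7 in dog1-4, 3809 ± 429.8 in brm-3dog1-4 and 1855 ± 119 in Col-0 (SD, n = 4 each), so that brm-3 stood at 1.08, dog1-4 at 1.56 and brm-3dog1-4 at 2.05 times the Col-0 mean. As a share of unscaled library counts the genes took 0.163 to 0.202% in brm-3, 0.252 to 0.319% in dog1-4, 0.378 to 0.564% in brm-3dog1-4 and 0.145 to 0.183% in Col-0.

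**Figure D1:**
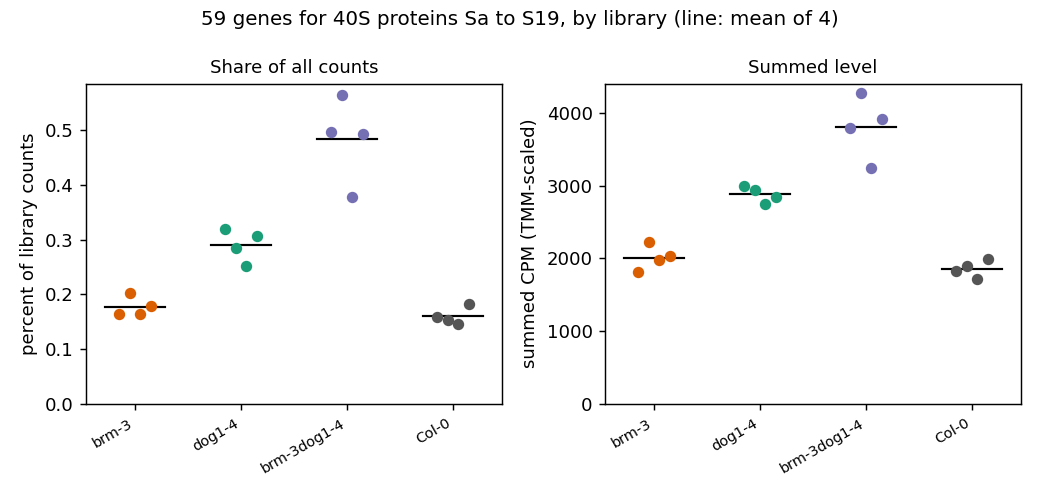
Share of all library counts (left, percent) and TMM-scaled sum (right, CPM) of the 59 genes by genotype, with a point for each library and a line for the mean of 4. The dog1-4 and brm-3dog1-4 libraries all lie above the Col-0 libraries, whose highest sum is 1991 CPM.

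Every gene's counts were fitted with edgeR's quasi-likelihood test over all 16 libraries and 10251 genes, and a gene was called where its Benjamini-Hochberg adjusted p was under 0.05. In dog1-4, 34 of the 49 tested members were higher than in Col-0 and none was lower, where 9.84% of all tested genes were higher and 8.58% lower. In brm-3dog1-4, 46 of 49 were higher and none lower, where 22.8% of all genes were higher and 23.3% lower. In brm-3 a single member, AT2G36160, was higher and none lower, where 5.22% of all genes were higher and 5.02% lower. The brm-3 count was 0 without brm-3 replicate 2 and 2 without brm-3 replicate 1, 3 or 4, dog1-4 replicate 2, brm-3dog1-4 replicate 3 or Col-0 replicate 1. At an unadjusted p under 0.05 the number of members called in either direction came to 7 in brm-3 (22.3% of all tested genes), 42 in dog1-4 (29.3%) and 47 in the double mutant (52.2%). The median log2 fold change over tested members came to 0.13 in brm-3, 0.67 in dog1-4 and 1.17 in the double mutant, and over all tested genes to 0.00, 0.00 and 0.01. The 3 contrasts share the same Col-0 libraries. Scaled by library size alone, without TMM, the median of all tested genes moved to 0.22 in dog1-4 and 0.58 in brm-3dog1-4 and that of the members to 0.90 and 1.74. Under that scaling 1940 genes were higher and 418 lower in dog1-4 and 5870 and 825 in brm-3dog1-4, where TMM gave 1009 and 880, and 2335 and 2392.

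Most of the increases had a log2 fold change under 1 in dog1-4 and over 1 in the double mutant. With a log2 fold change over 1 also required, 7 members remained higher in dog1-4 (4.2% of all tested genes) and 32 in brm-3dog1-4 (10.5%). In 32 members all 4 dog1-4 libraries lay above all 4 Col-0 libraries (10.2% of all tested genes), and in 45 all 4 brm-3dog1-4 libraries did (19.9%). In brm-3 this held for 1 member, AT5G15200 of RPS9 (7.17%). AT1G48830 was the member whose 4 brm-3dog1-4 libraries all lay below Col-0. The share of all tested genes below Col-0 in this way was not counted, and 23.3% of them were called lower in that contrast.

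**Figure D2:**
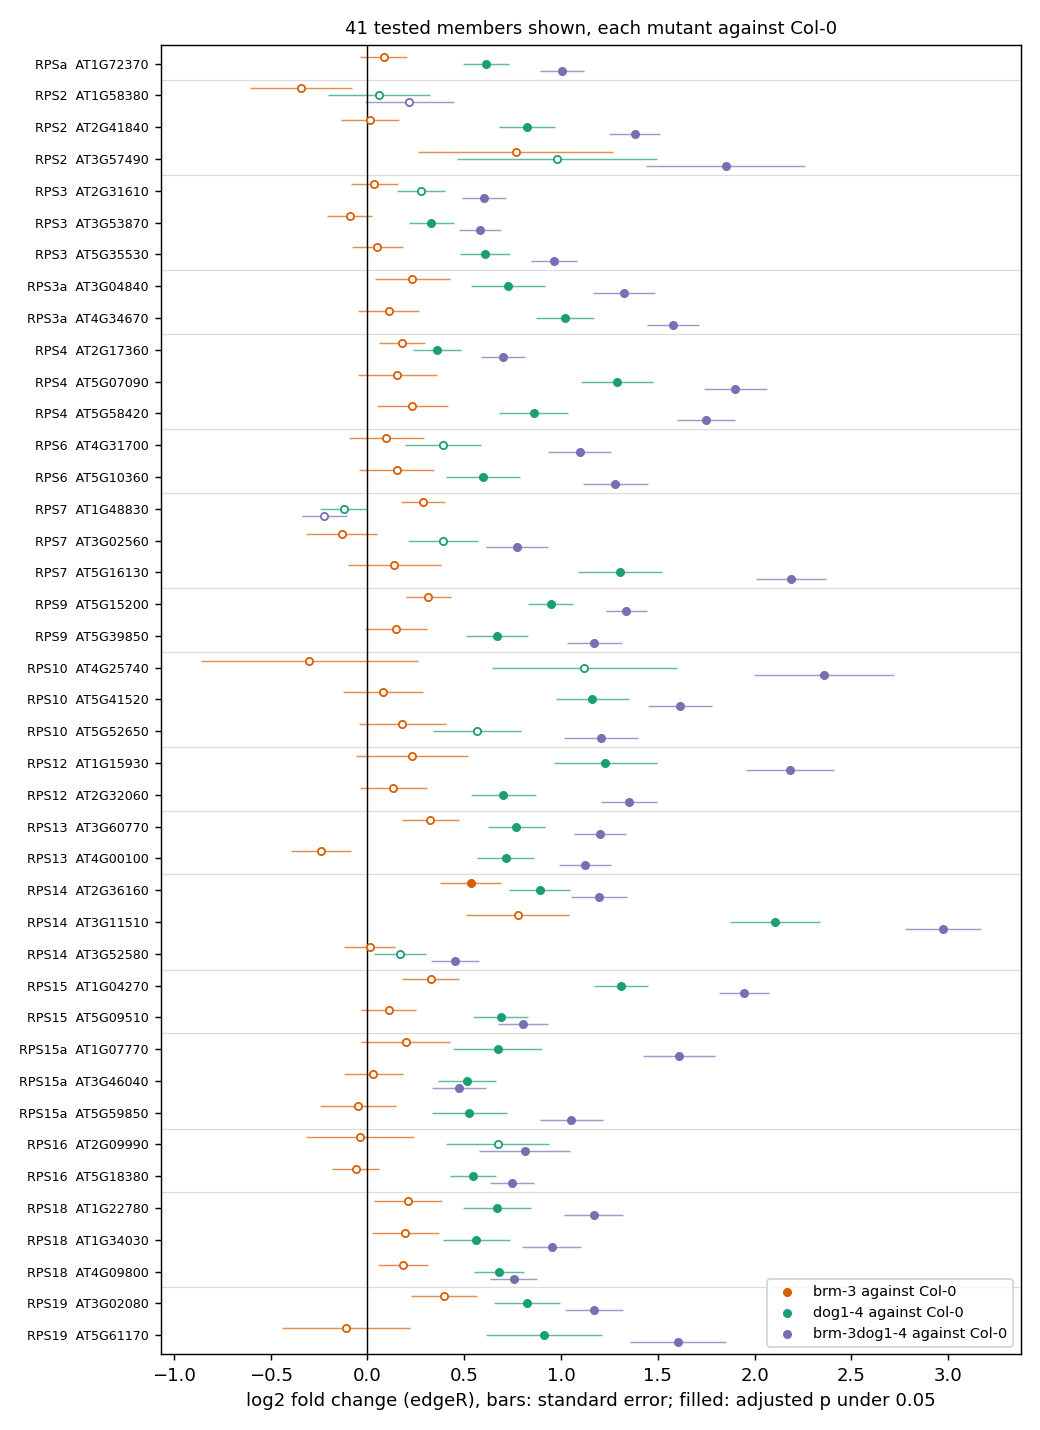
Log2 fold change against Col-0 (horizontal axis) of 41 tested members in 17 families, grouped by family, with bars for the standard error of the edgeR fit and filled points for an adjusted p under 0.05. A single brm-3 point is filled, against 31 dog1-4 points and 39 brm-3dog1-4 points.

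Levels differed widely between members, and since reads come from 3′ ends CPM was not divided by transcript length. Averaged over the 16 libraries, 7 members lay above 100 CPM, 40 between 10 and 100 CPM and 12 below 10 CPM. In each family the paralogue with the highest mean was called dominant, and the 21 dominant paralogues together held 64.4% of the summed level. Dividing by coding length picked the same dominant paralogue in 21 of 21 families. The dominant paralogue was the same in all 16 libraries in 13 families. In Col-0 its share of the family sum had a median of 67.6% and ran between 39.3% and 100%.

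Because a ribosome needs the families in equal numbers, each family was also tested as the sum of its paralogues. In Col-0 the sums spanned 36.4 CPM for RPS10 to 239 CPM for RPS3, a 6.56-fold range. In brm-3dog1-4 they spanned 84.5 CPM for RPS19 to 383 CPM for RPS3, a 4.54-fold range. The range was 4.87-fold in dog1-4 and 5.96-fold in brm-3, with RPS3 highest in each. In dog1-4, 19 of 21 family sums were higher than in Col-0 (9.72% of all features tested with the sums), and in brm-3dog1-4 20 of 21 were (22.6%). No family sum was called in brm-3, where edgeR gave 2 at an unadjusted p under 0.05 (22.3% of all tested genes) and DESeq2 gave 0 calls. Without brm-3 replicate 1 edgeR called 1.

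**Figure D3:**
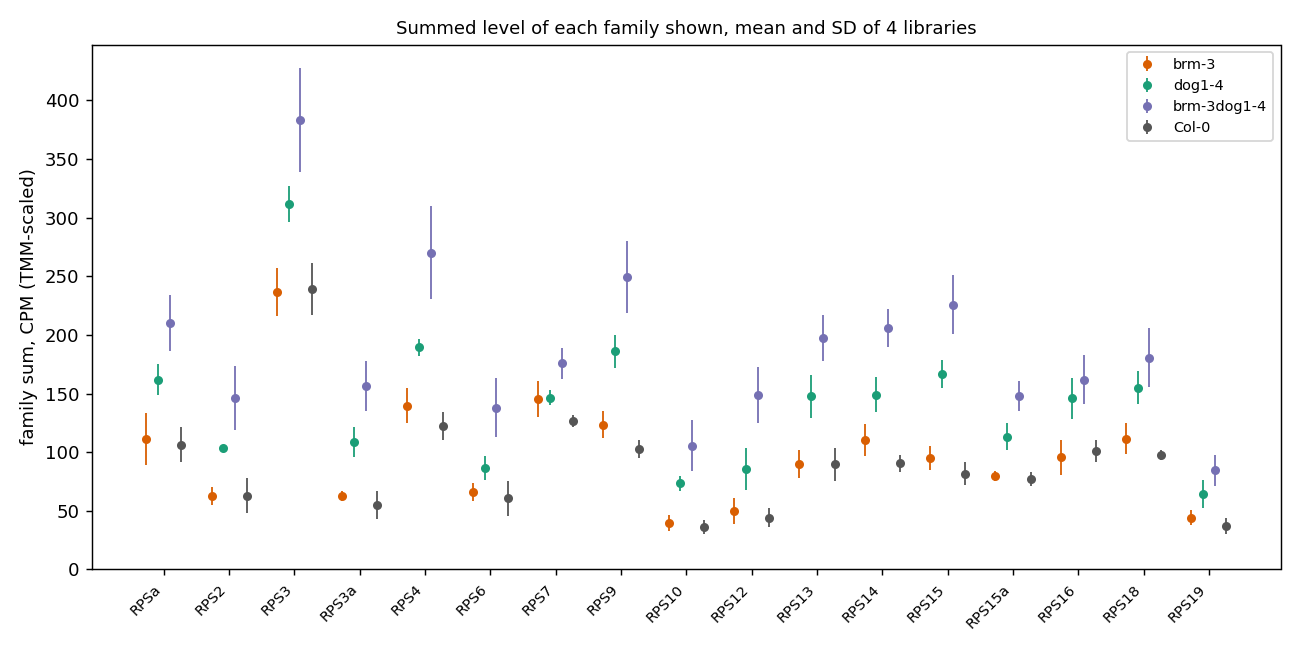
Summed level of each of 17 families (vertical axis, TMM-scaled CPM) in the 4 genotypes, with points for the mean and bars for the SD of 4 libraries. RPS3 is the highest family in each genotype, with means of 383 CPM in brm-3dog1-4 and 239 CPM in Col-0.

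Members of the 12 families of the body and platform and of the 9 families of the head were higher in dog1-4 and brm-3dog1-4. Of 27 tested members in the body and platform, 1 was higher in brm-3, 20 in dog1-4 and 25 in the double mutant, with median log2 fold changes of 0.15, 0.72 and 1.23. Of 22 tested members in the head, none was higher in brm-3, 14 were higher in dog1-4 and 21 in the double mutant, with medians of 0.10, 0.67 and 1.01. The difference between the groups was not tested. Over all tested genes, 5.22% were higher in brm-3, 9.84% in dog1-4 and 22.8% in the double mutant. By family sum, 11 of 12 body and platform families and 8 of 9 head families were higher in dog1-4, and 12 and 8 in brm-3dog1-4. Of all features tested with the sums, 9.72% were higher in dog1-4 and 22.6% in brm-3dog1-4.

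Among body and platform proteins, RPS3a (eS1) sits on the platform beside the mRNA exit. Its sum rose to 109 ± 13.0 CPM in dog1-4 and 157 ± 21.4 in brm-3dog1-4, against 55.1 ± 11.9 in Col-0, with a log2 fold change of 1.50 in the double mutant. The dominant gene was AT4G34670 at 78.2 ± 13.1 CPM in dog1-4 and 112 ± 15.7 in the double mutant, against 37.4 ± 9.14 in Col-0. It rose by log2 1.02 in dog1-4 and 1.58 in the double mutant.

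RPS2 (uS5) and RPS9 (uS4) line the channel by which mRNA enters, and both sums rose in dog1-4 and in the double mutant. RPS9 summed to 186 ± 14.2 CPM in dog1-4 and 249 ± 30.7 in brm-3dog1-4, against 103 ± 7.57 in Col-0. Its dominant paralogue AT5G15200 stood at 135, 134, 134 and 136 CPM in dog1-4 and 166, 195, 146 and 193 in brm-3dog1-4, against 72.7, 69.2, 65.1 and 71.4 in Col-0. In brm-3 it stood at 81.9, 95.9, 86.6 and 82.9 CPM, not called (log2 0.31, edgeR adjusted p = 0.0724). All libraries of the 3 mutants lay above Col-0, with log2 fold changes of 0.95 ± 0.11 in dog1-4 and 1.34 ± 0.11 in the double mutant (SE). The dominant RPS2 gene, AT2G41840, had log2 fold changes of 0.82 in dog1-4 and 1.38 in the double mutant. The minor RPS2 gene XW6 (AT1G58380) was at 13.2 ± 4.20 CPM in dog1-4 and 14.0 ± 3.02 in brm-3dog1-4, against 12.6 ± 2.90 in Col-0, and was not called in either (adjusted p = 0.915 and 0.458).

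RPS6 (eS6), a body protein, is the ribosomal substrate of S6 kinase in the TOR pathway. EMB3010 (AT5G10360), the dominant RPS6 gene, was at 60.3 ± 12.0 CPM in dog1-4 and 96.7 ± 21.2 in the double mutant, against 40.6 ± 13.0 in Col-0, with log2 fold changes of 0.60 (adjusted p = 0.0269) and 1.28 (adjusted p = 2.01e-07). The dog1-4 call was lost without dog1-4 replicate 1 or 3 or Col-0 replicate 1 or 3. The other RPS6 gene, AT4G31700, passed the test in brm-3dog1-4 (log2 1.10) and not in dog1-4 (0.39, adjusted p = 0.174).

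P40 (AT1G72370), the RPSa (uS2) gene related to the laminin receptor precursor of animals, was among the most abundant members. It stood at 160.4 ± 13.8 CPM in dog1-4 and 209 ± 24.4 in brm-3dog1-4, against 105 ± 15.9 in Col-0. Its log2 fold changes were 0.61 in dog1-4 and 1.00 in the double mutant. RPS13 (uS15) and RPS15a (uS8), which bind the central domain of the 18S rRNA, also rose as sums, RPS13 by log2 0.73 in dog1-4 and 1.15 in brm-3dog1-4 and RPS15a by 0.56 in dog1-4 and 0.96 in brm-3dog1-4. In RPS15a the dominant gene RPS15AD (AT3G46040) had a log2 fold change of 0.47 in the double mutant, and its paralogues RPS15A and AT5G59850, whose proteins are identical to each other, had 1.61 and 1.05.

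Among head proteins, RPS12, RPS10 and RPS15 had the largest family-sum increases. RPS12 (eS12) forms part of the beak, and its sum was 85.7 ± 17.8 CPM in dog1-4 and 149 ± 24.0 in brm-3dog1-4, against 44.2 ± 7.95 in Col-0 (log2 0.95 in dog1-4 and 1.76 in the double mutant). AT1G15930, dominant in that family by its mean over all libraries, had 59.6, 49.0, 21.2 and 48.1 CPM in dog1-4 and 90.3, 97.7, 66.6 and 86.6 in brm-3dog1-4, against 16.7, 18.7, 13.7 and 27.0 in Col-0. The double mutant libraries were all above Col-0, while dog1-4 replicate 3 lay within the Col-0 range. RPS10B (AT5G41520), a beak protein gene, was at 46.7 ± 5.14 CPM in dog1-4 and 61.5 ± 13.7 in the double mutant, against 20.04 ± 6.55 in Col-0, and both increases passed the test (log2 1.16 in dog1-4 and 1.62 in the double mutant).

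RPS15 (uS19) has a tail that reaches toward the decoding site. RPS15 (AT1G04270), dominant by its mean over all libraries but not in Col-0, had 102, 99.4, 84.7 and 107 CPM in dog1-4 and 136, 168, 127 and 175 in brm-3dog1-4, against 39.4, 35.8, 37.0 and 45.7 in Col-0. The 3 genotypes did not overlap, and the log2 fold changes were 1.31 ± 0.14 in dog1-4 and 1.95 ± 0.13 in the double mutant (SE), with edgeR adjusted p = 3.41e-11 and 4.24e-20. brm-3 stood at 39.6, 56.4, 46.6 and 55.8 CPM and was not called (log2 0.33, adjusted p = 0.165). AT5G09510, whose protein differs from it at 1 of 152 residues, had log2 fold changes of 0.69 in dog1-4 and 0.80 in the double mutant.

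The sums of RPS3, RPS16 and RPS19, also in the head, rose by smaller amounts. RPS3 (uS3), at the mRNA entry, had a sum of 312 ± 15.6 CPM in dog1-4 and 383 ± 44.4 in brm-3dog1-4, against 239 ± 22.3 in Col-0, or log2 0.39 in dog1-4 and 0.69 in the double mutant. Its 3 paralogues averaged 64.5 to 93.5 CPM in Col-0, and the dominant one was AT3G53870 at 119 ± 5.84 CPM in dog1-4 and 139 ± 19.4 in the double mutant, against 93.5 ± 10.0 in Col-0. Its dog1-4 increase (log2 0.33, edgeR adjusted p = 0.0376) was not called by DESeq2 (0.0758), without the low-count filter (0.0896), or without dog1-4 replicate 1, 2 or 4 or Col-0 replicate 2 or 3 (adjusted p up to 0.158). RPS16 (uS9), whose tail touches the P-site tRNA, was carried by AT5G18380 at 126 ± 13.5 CPM in dog1-4 and 142 ± 15.7 in the double mutant, against 85.7 ± 8.21 in Col-0 (log2 0.55 in dog1-4 and 0.75 in the double mutant). RPS19 (eS19), needed for 18S rRNA maturation in yeast and human cells, was carried by AT3G02080 at 48.3 ± 6.30 CPM in dog1-4 and 59.8 ± 11.8 in the double mutant, against 27.5 ± 5.90 in Col-0 (log2 0.82 in dog1-4 and 1.17 in the double mutant).

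The RPS18 (uS13) family has 3 genes with identical predicted proteins, and all of them rose. PFL (AT1G22780), known for its pointed first leaves mutant, had log2 fold changes of 0.67 in dog1-4 and 1.17 in brm-3dog1-4. AT1G34030 had 0.56 in dog1-4 and 0.95 in brm-3dog1-4, and the dominant RPS18C (AT4G09800) 0.68 in dog1-4 and 0.76 in brm-3dog1-4.

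In RPS7 the dominant gene was not called in either dog1-4 or the double mutant. The RPS7 (eS7) sum was 147 ± 6.06 CPM in dog1-4, not called (log2 0.21, adjusted p = 0.176), and 176 ± 12.9 in brm-3dog1-4, called (0.48, adjusted p = 4.48e-05), against 127 ± 4.95 in Col-0. Its dominant gene AT1G48830 had 77.6, 95.5, 84.7 and 75.6 CPM in dog1-4 and 76.2, 75.2, 78.8 and 77.9 in brm-3dog1-4, against 86.8, 94.4, 90.1 and 88.1 in Col-0. The double mutant lay below Col-0 in all libraries, the change was not called (log2 -0.22 ± 0.11 SE, adjusted p = 0.109), and scaling by library size alone turned it to 0.35 with an adjusted p of 0.00649. AT1G48830 had 106, 109.8, 134 and 87.6 CPM in brm-3, and against those libraries it fell by 0.51 on the log2 scale in the double mutant (adjusted p = 1.67e-04), the single decrease among the members in that contrast (19.7% of all tested genes).

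AT5G16130, the RPS7 paralogue with the lowest level in Col-0, rose in both mutants. It had 37.2, 31.0, 19.5 and 40.5 CPM in dog1-4 and 61.7, 64.6, 49.9 and 59.9 in brm-3dog1-4, against 13.6, 12.2, 11.3 and 14.8 in Col-0. No library of either mutant overlapped Col-0, and the log2 fold changes were 1.31 in dog1-4 and 2.19 in the double mutant (edgeR adjusted p = 3.61e-06 and 8.66e-16). The predicted proteins of AT1G48830 and AT5G16130 share 77.0% of residues over the longer of the pair.

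The RPS14 (uS11) family, whose protein sits on the platform at the mRNA exit, held the largest fold change among the 49 tested members in dog1-4 and in brm-3dog1-4. AT3G11510 (chr3:3623448-3624961 in TAIR10.1) had 43.5, 24.5, 35.8 and 39.7 CPM in dog1-4 and 63.0, 71.6, 61.3 and 74.1 in brm-3dog1-4, against 12.6, 2.44, 9.65 and 7.72 in Col-0. Its log2 fold changes were 2.10 ± 0.23 in dog1-4 and 2.98 ± 0.20 in the double mutant (SE), which are 4.30-fold and 7.87-fold, with edgeR adjusted p = 1.89e-10 and 2.16e-19. The Col-0 level of AT3G11510 rested on few reads, with 25, 3, 12 and 12 counts. Leaving out each library moved the log2 fold change between 1.86 and 2.46 in dog1-4 and between 2.72 and 3.32 in the double mutant. In brm-3 it had 12.3, 15.8, 11.9 and 18.8 CPM, overlapping Col-0 through replicate 1 of the wild type, and the log2 fold change of 0.78 just missed the threshold (adjusted p = 0.0514). It was called with no low-count filter (0.0388), with a replicate block (0.0431) and without brm-3 replicate 1 or 3, dog1-4 replicate 2, brm-3dog1-4 replicate 3 or Col-0 replicate 1, and leaving out each library moved its adjusted p between 0.0125 and 0.214. AT3G52580 (chr3:19503153-19504973 in TAIR10.1), dominant by its mean over all libraries, had 65.8, 64.5, 59.5 and 48.9 CPM in dog1-4 and 70.02, 78.4, 70.1 and 69.9 in brm-3dog1-4, against 53.5, 57.8, 57.1 and 44.4 in Col-0. The dog1-4 libraries overlapped Col-0 (log2 0.17, adjusted p = 0.443) and the double mutant ones lay above it (log2 0.45, adjusted p = 0.00177).

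AT2G36160 (chr2:15169818-15171459 in TAIR10.1), the third RPS14 gene, was the member called in brm-3. It had 29.4, 54.0, 42.4 and 42.9 CPM in brm-3, 60.8, 47.8, 52.1 and 53.4 in dog1-4 and 63.4, 71.6, 56.9 and 72.8 in brm-3dog1-4, against 29.8, 27.7, 29.8 and 29.6 in Col-0. Replicate 1 of brm-3 lay within the Col-0 range and the 3 others above it. The log2 fold change in brm-3 was 0.53 ± 0.16 (SE, edgeR adjusted p = 0.0181), and it was not called by DESeq2 (0.0521) or when brm-3 replicate 2 was left out (0.149).

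The RPS14 and RPS7 genes are shown by the 150 bases before their annotated starts, because their paralogues changed by unequal amounts. Sequences are from the RefSeq annotation of TAIR10.1, 5′ to 3′ on the gene's strand, and capitals mark a telo box (AAACCCTA) or site II element (TGGGCC or TGGGCT) on either strand, both known from promoters of plant ribosomal protein genes.
AT3G11510 (RPS14, chr3:3624962-3625111, minus strand): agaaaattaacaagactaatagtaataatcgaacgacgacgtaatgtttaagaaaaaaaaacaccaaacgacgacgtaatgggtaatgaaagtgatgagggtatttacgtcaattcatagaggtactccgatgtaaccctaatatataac
AT3G52580 (RPS14, chr3:19503003-19503152, plus strand): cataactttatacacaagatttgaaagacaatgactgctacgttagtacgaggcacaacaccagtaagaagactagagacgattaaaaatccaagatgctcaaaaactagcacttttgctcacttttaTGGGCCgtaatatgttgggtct
AT2G36160 (RPS14, chr2:15169668-15169817, plus strand): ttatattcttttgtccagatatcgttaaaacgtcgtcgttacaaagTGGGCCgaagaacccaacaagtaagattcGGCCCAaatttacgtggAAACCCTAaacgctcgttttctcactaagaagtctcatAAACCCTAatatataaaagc
AT1G48830 (RPS7, chr1:18061303-18061452, minus strand): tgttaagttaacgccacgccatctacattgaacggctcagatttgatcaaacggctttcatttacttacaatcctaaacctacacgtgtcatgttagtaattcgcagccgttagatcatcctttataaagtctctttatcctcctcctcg
AT5G16130 (RPS7, chr5:5268271-5268420, plus strand): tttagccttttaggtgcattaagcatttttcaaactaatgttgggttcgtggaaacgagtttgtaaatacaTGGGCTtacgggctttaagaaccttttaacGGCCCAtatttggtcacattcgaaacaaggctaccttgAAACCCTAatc

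Among the RPS14 stretches, AT2G36160 holds 2 telo boxes and 2 site II elements, AT3G52580 holds 1 site II element, and AT3G11510 holds none of either. Of the RPS7 stretches, AT5G16130 holds 1 telo box and 2 site II elements and AT1G48830 none of either, although AT1G48830 has a telo box just after its start, outside the bases shown and inside the wider window used next. Over 250 bases before to 50 after the start, a telo box was found in 30 of the 59 genes (50.8%) and in 6.22% of 27443 genes with a promoter, and a site II element in 41 of 59 (69.5%) and 21.7%. Both were found in 23 of 59 (39.0%) and in 2.2% of all. The median log2 fold change in brm-3dog1-4 was 1.20 over the 25 tested members with a telo box and 1.11 over the 24 without, and 1.27 over the 37 with site II and 0.91 over the 12 without. With and without a telo box the medians were 0.77 and 0.60 in dog1-4 and 0.15 and 0.08 in brm-3. With and without site II they were 0.70 and 0.64 in dog1-4 and 0.13 and 0.13 in brm-3. A match is a string in a window, and no test was made of these medians.

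In some families the members changed by unequal amounts, and the shares of the family sum that they held moved. For each dominant paralogue the share of its family sum was compared with Col-0 by a two-sided exact permutation test of 4 against 4 libraries, whose smallest p is 0.0286, without adjustment over the 63 comparisons. It is reached whenever the 4 shares of a mutant all lie on the same side of the 4 of Col-0. That smallest p was reached by 1 family in brm-3 (4 families without Col-0 replicate 4), 6 in dog1-4 and 8 in the double mutant. With 21 families compared in each mutant, the single family in brm-3 is near what chance gives. In brm-3dog1-4 the dominant share was lower in 5 families, RPS4, RPS7, RPS14 and RPS15a among them, and higher in 3 (RPS2, RPS12 and RPS15). In dog1-4 it was lower in 4 families, RPS4, RPS7 and RPS14 among them, and higher in 2, with RPS15 among them.

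In the double mutant the dominant share shifted most in RPS7. AT1G48830 supplied 74.8 ± 6.52% of the RPS7 sum in brm-3, 56.9 ± 5.79% in dog1-4 and 44.1 ± 4.28% in the double mutant, against 70.8 ± 1.34% in Col-0 (SD, n = 4 each; exact permutation p = 0.314, 0.0286 and 0.0286). AT5G16130 supplied 21.8 ± 5.97% in dog1-4 and 33.5 ± 1.36% in brm-3dog1-4, against 10.2 ± 1.38% in Col-0. In RPS14, AT3G52580 supplied 40.1 ± 5.30% in dog1-4 and 35.1 ± 2.08% in the double mutant, against 58.8 ± 5.08% in Col-0, while AT3G11510 supplied 23.9 ± 4.28% in dog1-4 and 32.8 ± 0.949% in the double mutant, against 8.85 ± 4.36% in Col-0. In the double mutant the 3 RPS14 genes stood at 67.5 ± 6.30 (AT3G11510), 72.1 ± 4.19 (AT3G52580) and 66.2 ± 7.46 CPM (AT2G36160). In RPS4 (eS4), a body protein whose paralogues are nearly identical, AT2G17360 supplied 56.3 ± 4.21% in dog1-4 and 49.9 ± 1.62% in brm-3dog1-4, against 68.1 ± 1.74% in Col-0.

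In RPS4 all 3 paralogues rose, by unequal amounts. AT2G17360 had 106, 94.2, 121 and 107 CPM in dog1-4 and 151, 146, 113 and 128 in brm-3dog1-4, against 90.3, 89.5, 69.2 and 84.2 in Col-0. Its log2 fold changes of 0.36 (adjusted p = 0.0306) and 0.70 (adjusted p = 6.16e-07) passed the edgeR test, and the dog1-4 call was lost with DESeq2 (0.0667), without the low-count filter (0.0599), or without dog1-4 replicate 1, 3 or 4 or Col-0 replicate 3 or 4 (up to 0.144). AT5G07090 rose by more, to 49.0, 47.8, 40.7 and 38.9 CPM in dog1-4 and 75.0, 74.5, 55.2 and 59.9 in brm-3dog1-4, against 16.1, 18.7, 15.3 and 21.9 in Col-0 (log2 1.29 in dog1-4 and 1.90 in the double mutant). AT5G58420 had log2 fold changes of 0.86 in dog1-4 and 1.75 in the double mutant.

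RPS15 and RPS12 moved instead toward the gene that was dominant by its mean over all 16 libraries, the mutants included. That choice favours genes that are high in the mutants. In Col-0 the most abundant RPS15 gene was AT5G09510. RPS15 (AT1G04270) supplied 59.2 ± 5.41% of its family in dog1-4 and 66.9 ± 3.40% in brm-3dog1-4, against 48.4 ± 3.74% in Col-0. AT1G15930 supplied 57.5 ± 1.34% of RPS12 in brm-3dog1-4, against 42.4 ± 5.24% in Col-0 where AT2G32060 was the more abundant. In brm-3 the share that reached the smallest p was that of RPS13A (AT4G00100), at 36.1, 50.3, 50.0 and 53.6% of the RPS13 sum, against 60.3, 59.3, 55.0 and 57.8% in Col-0. With 21 families compared, 1 at that p is near what chance gives. The RPS18 share did not reach the smallest p in any mutant.

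**Figure D4:**
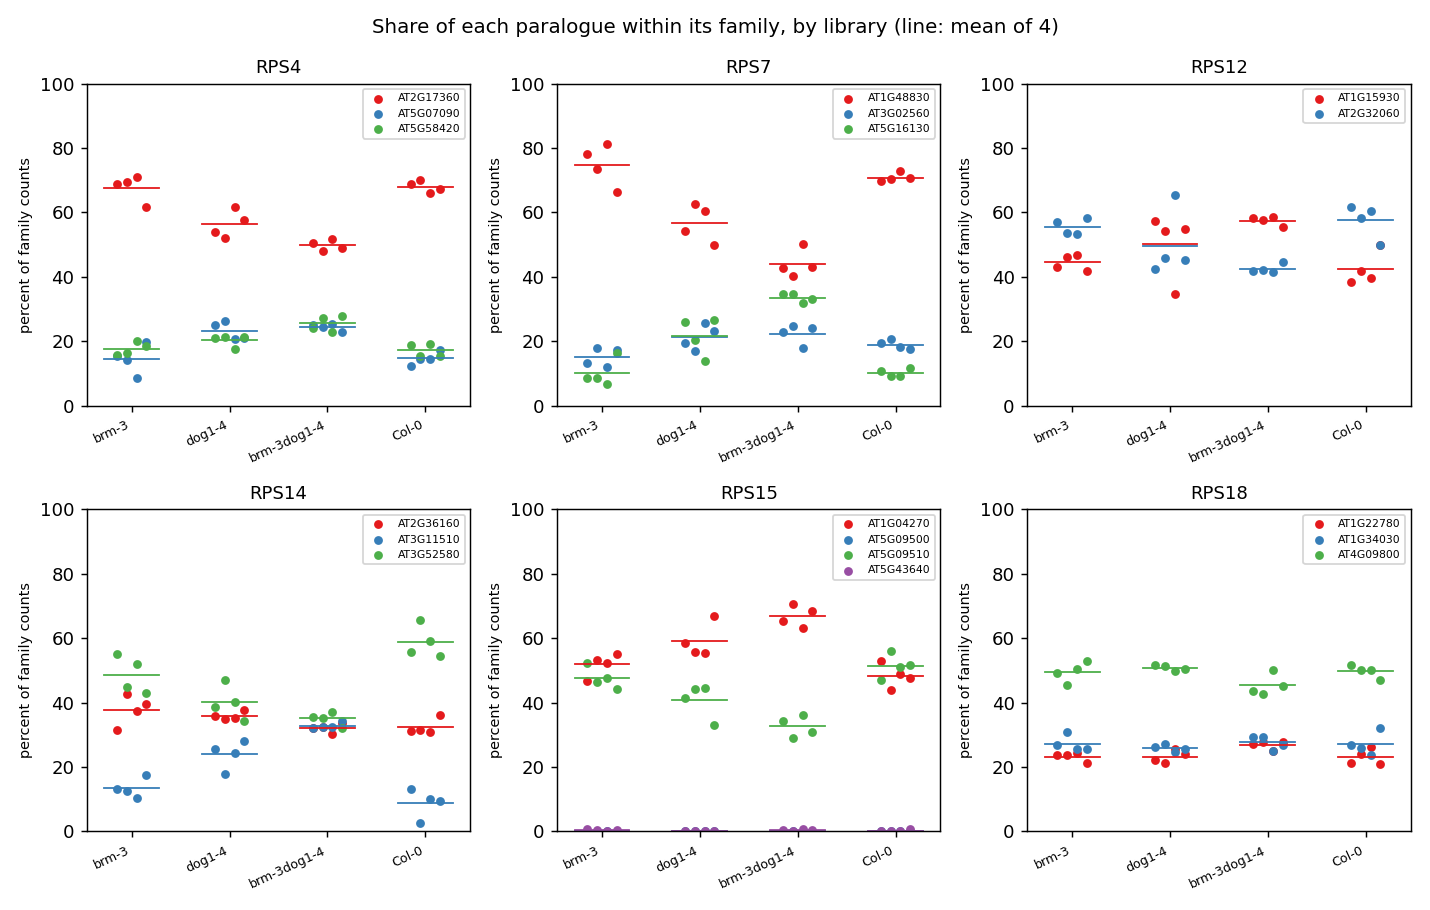
Percent of the family sum supplied by each paralogue (vertical axis) in RPS4, RPS7, RPS12, RPS14, RPS15 and RPS18, with a point for each library, a line for the mean of 4 and a colour for each paralogue. The RPS7 gene AT1G48830 averages 44.1% in brm-3dog1-4 and 70.8% in Col-0.

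The double mutant was also set against each single mutant. Against brm-3, 46 of 49 tested members were higher (18.5% of all tested genes) and AT1G48830 was lower, with a median log2 fold change of 1.02. Against dog1-4, 33 of 49 were higher (12.1% of all tested genes) and none was lower (15.4%), with a median of 0.46. As family sums, 21 of 21 were higher than in brm-3 and 17 of 21 than in dog1-4, where 18.5% and 12.1% of all tested genes were. The sums not called against dog1-4 included RPS16 (log2 0.17) and RPS18 (0.25).

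Whether the double mutant departed from the sum of the single-mutant changes was tested as an interaction, the log2 fold change in brm-3dog1-4 less those in brm-3 and dog1-4. It was above 0 in 42 of 49 tested members, with a median of 0.34 (-0.01 over all tested genes), and 3 members were called above 0 and none below, where 1.95% of all tested genes were called above 0 and 6.84% below. No family sum was called, with 10 at an unadjusted p under 0.05 (21.5% of all tested genes) and 0 called by DESeq2. Scaling by library size alone called 15 family sums. Under it 869 of 10251 tested genes were called above 0, against 200 with TMM, and the median over all tested genes moved to 0.31. A replicate block called 3 family sums. Leaving out single libraries gave 5 without brm-3dog1-4 replicate 3 and 3 without Col-0 replicate 3. It gave 2 without brm-3 replicate 2 or dog1-4 replicate 1, and 1 without Col-0 replicate 2. The count of 3 members became 0 without Col-0 replicate 4, 1 without replicate 3 or 4 of dog1-4 or replicate 2 of the double mutant, and 5 when replicate 3 of the double mutant was left out. DESeq2 called 1 member.

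RPS13A (AT4G00100), known for pointed leaves in its mutant, had a called interaction. It had 26.6, 51.0, 47.8 and 48.2 CPM in brm-3, 98.7, 90.4, 66.0 and 83.2 in dog1-4 and 109, 127, 104 and 106 in brm-3dog1-4, against 42.9, 52.1, 53.1 and 59.8 in Col-0. Replicate 1 was the low library of brm-3. The log2 fold changes were -0.24 in brm-3 (not called), 0.72 in dog1-4 and 1.12 in brm-3dog1-4, and the interaction 0.64 ± 0.20 (SE, edgeR adjusted p = 0.033). That call was lost with DESeq2 (0.0660) and without any of 7 libraries (brm-3 replicate 1, dog1-4 replicates 3 and 4, brm-3dog1-4 replicate 2, Col-0 replicates 2 to 4).

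**Figure D5:**
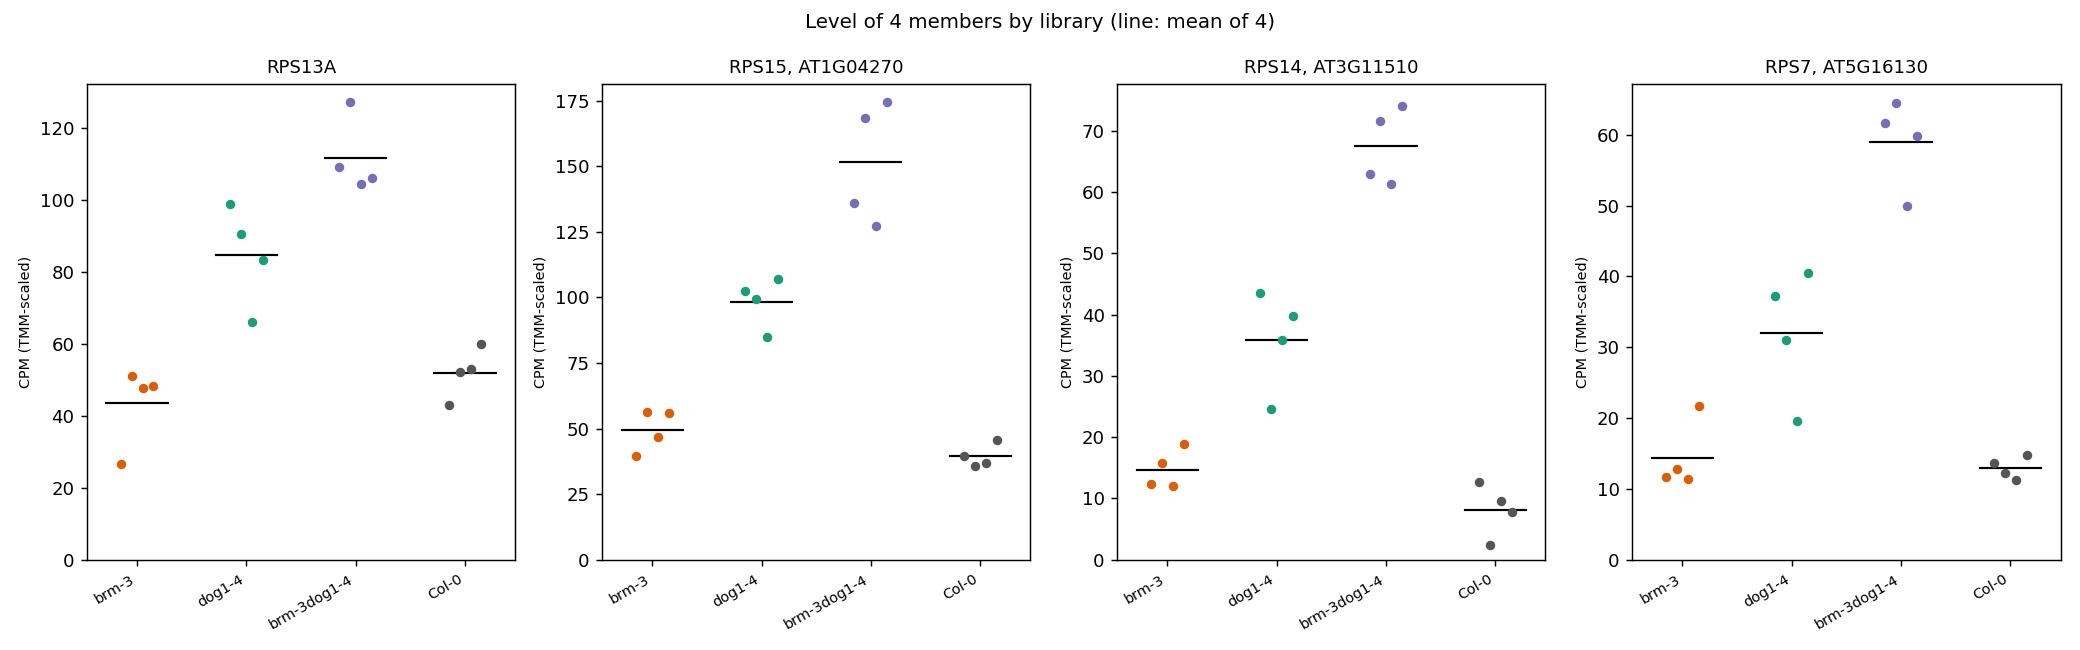
Level (vertical axis, TMM-scaled CPM) of RPS13A, RPS15 (AT1G04270), AT3G11510 of RPS14 and AT5G16130 of RPS7 by genotype, with a point for each library and a line for the mean of 4. AT5G16130 lies between 49.9 and 64.6 CPM in brm-3dog1-4 and between 11.3 and 14.8 CPM in Col-0.

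10 members did not pass the low-count filter and were not tested, among them AT3G04770, AT1G59359, AT5G09500, AT5G43640, AT2G39590, AT3G04230 and AT5G15520. AT1G59359, AT5G09500 and AT2G39590 had no count in any library. With no filter beyond 1 count, AT3G04230 of RPS16 was called lower in the double mutant (log2 -1.14 ± 0.42 SE, edgeR adjusted p = 0.0278), with 5, 7, 2 and 10 counts in brm-3dog1-4, against 17, 3, 4 and 12 in Col-0. These counts overlap. The last 300 bases of AT1G59359 are identical to those of AT1G58684, so its reads may have been assigned elsewhere or discarded. AT4G25740 of RPS10, one of the least abundant tested members, had 5.63 ± 1.00 CPM in dog1-4 and 12.9 ± 2.63 in the double mutant, against 2.37 ± 1.25 in Col-0, and passed the test in brm-3dog1-4 (log2 2.36, adjusted p = 1.67e-07) and not in dog1-4 (adjusted p = 0.0968).

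The remaining 40S genes (S20 to S30 and RACK1) moved the same way, with none of 30 tested called in brm-3, 17 higher in dog1-4 and 25 in the double mutant, none lower, and median log2 fold changes of 0.64 in dog1-4 and 0.88 in the double mutant. Of 47 tested large-subunit (60S) genes, found by product text, 1 was higher and 2 lower in brm-3, 24 were higher and 1 lower in dog1-4, and 33 higher and 5 lower in brm-3dog1-4, with medians of 0.53 in dog1-4 and 0.90 in the double mutant. The search took only some wordings of the product text, so this list may be incomplete. The same holds for the chloroplast and mitochondrial list. For comparison, the share of every tested gene called higher was 22.8% for the double mutant, 9.84% for dog1-4 and 5.22% for brm-3. The share called lower was 23.3%, 8.58% and 5.02%, in that order. The chloroplast and mitochondrial list had 30%, 5% and 10% higher, again in that order, and its difference from all genes was not tested. Of 20 tested genes for chloroplast and mitochondrial ribosomal proteins, 2 were higher in brm-3, 1 in dog1-4, and 6 were higher and 1 lower in brm-3dog1-4 (medians 0.22 in dog1-4 and 0.40 in the double mutant).

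Markers of other tissues and stages were counted beside these results. Of 11 seed storage and oil body genes, 1 was higher and 1 lower in brm-3, 1 higher and 2 lower in dog1-4, and 2 were higher and 6 lower in brm-3dog1-4. Their summed level was 112525 to 148685 CPM in brm-3, 100547 to 142621 in dog1-4 and 76428 to 99485 in brm-3dog1-4, against 103269 to 153629 in Col-0. As a share of unscaled library counts the double mutant overlapped the wild type, with 10.1 to 12.3% in brm-3, 10.7 to 13.0% in dog1-4 and 10.1 to 12.5% in brm-3dog1-4, against 9.48 to 12.5% in Col-0. Of 4 leaf photosynthesis genes 1 (AT1G67090, a Rubisco small subunit gene) could be tested and was higher in all 3 mutants, and their summed level was 23.1 to 29.4 CPM in brm-3, 27.1 to 47.3 in dog1-4 and 53.4 to 102 in brm-3dog1-4, against 5.70 to 12.1 in Col-0, with AT1G29910 at 0 in every library. Neither of 2 tested endosperm genes was called in brm-3 or dog1-4 and 1 was higher in brm-3dog1-4. The 3 seed coat genes summed to at most 7.74 CPM and the 3 cell division genes to at most 1.63 CPM in any library, and the part of these markers in the ribosomal protein results was not tested.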

How the data were processed

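3′RNA-Seq counts per gene were analysed for 16 dry-seed libraries, 4 of each genotype, grouped by their labels. The authors deposited unnormalised read counts, 1 file per library. The submitters' processing notes name STAR 2.7.8a, DESeq2 and the build TAIR10, and the counting tool, strand setting and use of molecular identifiers are not given in the sources used here, so floors cover counting error only. Counts were fitted in R 4.3.3 with edgeR 4.0.16 (TMM factors, filterByExpr by genotype, robust quasi-likelihood test, all libraries in 1 fit, Benjamini-Hochberg over 10251 genes), after the script was tested on simulated data. The tested genes held 98.1 to 99.2% of counts. Family sums were tested in the same way with the members replaced by 21 sums. Shares were compared by exact permutation. Genes named by rule were the 21 dominant paralogues, the 3 members with the smallest adjusted p in each direction in each mutant and the 3 in the interaction, and by name only the members that were not tested (values for AT3G04230 were added after they were seen). Some families enter every count and sum but are not reported here by name or drawn. Other members were named to describe families after their values were seen. Alternatives were other scalings, filters, DESeq2 1.42.0, a replicate block and leaving out each library. The counts of all 24 same-group pairs of libraries differed by more than sampling noise (chi-square over its degrees of freedom 1.40 to 3.86). Protein identities came from translating the annotated coding sequences, and 3′ ends were compared with blastn 2.17.0. The members and lists were chosen with earlier results of these data known, and the increase in ribosomal protein genes was among those results.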

Additional observations from a re-analysis of the deposited data

Results flagged for a closer look

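In 72 groups of 4 libraries examined for a library far from the rest, 1 family sum stood out, where chance gives about 1 in 20. The RPS7 sum of Col-0 replicate 2 was 134 CPM, with the 3 others between 124 and 125 CPM. The effect of brm-3 differed between the dog1-4 and the DOG1 background in RPS13A (AT4G00100), by 0.64 on the log2 scale in the edgeR interaction test.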

How the results depend on the processing

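Requiring a log2 fold change over 1 as well left 0 members called in brm-3 and 7 in dog1-4 (4.2% of all tested genes). It left 25 in brm-3dog1-4 against brm-3, 2 against dog1-4 and 1 in the interaction. Apart from dog1-4, the share of all tested genes was not counted for these contrasts. Scaling by library size alone gave 19 members and 15 family sums called in the interaction, where 869 of 10251 tested genes were called above 0, against 200 with TMM. It gave log2 differences of the summed level of 0.86 in dog1-4 and 1.59 in brm-3dog1-4, against 0.64 and 1.03 with TMM. Under it AT1G48830 in brm-3dog1-4 against Col-0 turned to 0.35. Without a low-count filter, and with at least 10 counts in every library (42 members tested), 2 members were called in brm-3. Of all genes tested, 567 of 21204 were higher without the filter and 353 of 5686 with at least 10 counts. DESeq2 called 0 in brm-3 and 1 in the interaction, where 376 and 99 of 10251 tested genes were called above 0. Libraries with the same replicate number did not deviate together (correlations -0.035 to 0.072, 3 of 16 libraries most like their own number), and a fit with the replicate number as a block called 2 members in brm-3, 35 in dog1-4, 46 in brm-3dog1-4 and 3 in the interaction, with 3 family sums in the interaction. In the block fit 572, 1046, 2330 and 218 of 10251 tested genes were called above 0, in the same order.

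Leaving out each library in turn gave 0 to 2 members called in brm-3, 28 to 34 in dog1-4 and 46 to 47 in brm-3dog1-4. It gave 46 to 48 in brm-3dog1-4 against brm-3, 26 to 37 against dog1-4 and 0 to 5 in the interaction. Of the 10290 to 10784 genes tested in these fits, 393 to 584 were higher in brm-3, 844 to 1050 in dog1-4 and 2151 to 2486 in brm-3dog1-4. In the interaction 114 to 264 were called above 0. Family sums called numbered 0 to 1 in brm-3, 18 to 19 in dog1-4, 20 in each case in brm-3dog1-4 and 0 to 5 in the interaction. The dominant shares at the smallest p numbered 1 to 4 in brm-3, 6 to 8 in dog1-4 and 8 to 10 in brm-3dog1-4, and the summed level differed from Col-0 by 0.06 to 0.16, 0.60 to 0.67 and 0.98 to 1.11 on the log2 scale. The highest interaction counts came without brm-3dog1-4 replicate 3, the highest share count in brm-3 without Col-0 replicate 4, and the family sum called in brm-3 without brm-3 replicate 1. The causes were not tested. For the summed level, the scalings and the omission of libraries were added after seeing the data. Of 1801 outcomes for 19 genes (those named by rule, less the families not reported by name), 1750 kept their side of the threshold. The called ones among these also kept their direction, while the direction of uncalled ones was not compared. Of the rest, 30 lost a call, 20 gained one and 1 reversed. The 10 members below the filter had few counts or none, and depth limits what could be seen of them. With no filter 1 of them was called, AT3G04230, lower in brm-3dog1-4.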
